A study of Mus musculus with 7 samples.

Results

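The clustered protocadherin genes were examined by array and by position in mouse neural stem cells (NSCs) with and without Smchd1. Members were every gene on chromosome 18 whose Gencode symbol is Pcdha, Pcdhb or Pcdhg followed by its member number, including the C-type genes Pcdhac1, Pcdhac2, Pcdhgc3, Pcdhgc4 and Pcdhgc5, ordered by start coordinate. Of 55335 genes in the count tables, 58 were members, of which 14 lay in the Pcdha array, 22 in the Pcdhb array and 22 in the Pcdhg array. One symbol, Pcdha11, is carried by 2 gene identifiers in the annotation used, so the Pcdha array has 14 identifiers. All members lie on the plus strand of GRCm38, from 36930184 (the start of Pcdha1) to 37841873 (the end of Pcdhgc5) on chromosome 18, in the order Pcdha, Pcdhb, Pcdhg.

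Clustered protocadherins are cadherin-like proteins of the cell surface that bind the same combination of isoforms on a neighbouring cell, and they are known for giving single neurons an identity by which their own branches recognise and avoid each other. In the Pcdha and Pcdhg arrays each member has a variable first exon with its own promoter, which is spliced to a few constant exons at the 3′ end of the array, whereas a Pcdhb member is in essence a single exon without a constant part. The choice of promoter is known to involve CTCF and cohesin, which loop promoters to distant enhancers, and DNA methylation. Smchd1 encodes a noncanonical SMC protein of chromatin that is known to keep the inactive X chromosome, some imprinted genes and clustered protocadherin genes silent.

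The cells were NSCs of the FVB/N mouse strain, grown with EGF and bFGF, and their polyadenylated RNA was sequenced as direct cDNA on nanopore flow cells. The 4 wild-type (WT) samples carried a functional Smchd1, and the 3 *Smchd1*-null samples carried the MommeD1 allele of Smchd1. No label states whether samples came from separate animals or cultures, so p-values measure only the spread between these samples, which may be technical. Batch 1 held WT replicate 2 with *Smchd1*-null replicates 1 and 2. Batch 2, for which a later library kit was used, held *Smchd1*-null replicate 3 with WT replicates 3 and 4, and WT replicate 1 was run in both. Values within a batch, given below, leave out WT replicate 1. Batch 1 then has WT replicate 2 as its only WT sample, and batch 2 has *Smchd1*-null replicate 3 as its only *Smchd1*-null sample.

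Total counts ranged from 2741820 (*Smchd1*-null replicate 1) to 7736498 (*Smchd1*-null replicate 2). Levels are given as CPM, the counts of a gene per M (mega) counts of its library after TMM scaling, and 3 counts, the most that a count of 0 allows, correspond to 0.399 to 1.13 CPM depending on the sample. These limits and the intervals given below cover counting error only. Smchd1 itself was at 55.7 to 74.7 CPM in WT and at 12.8 to 18.4 CPM in *Smchd1*-null samples, so every sample matched its label. Over all genes, 144 were called at an adjusted p under 0.25, and single libraries moved this count widely, to 3153 without *Smchd1*-null replicate 3 and 2924 without WT replicate 2, and to 1 without *Smchd1*-null replicate 1 and 2 without *Smchd1*-null replicate 2. Counts of called members are therefore also given with libraries left out.

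Most reads of the clustered protocadherins were counted in the Pcdhb array. Over the 7 samples the 58 members had 3900 counts, of which Pcdhb held 3417 (87.6%), Pcdhg 422 (10.8%) and Pcdha 61 (1.56%). At least 1 count was seen for 10 of 14 Pcdha, 21 of 22 Pcdhb and 20 of 22 Pcdhg members, and the other 7 members were at 0 in every sample. How reads could be assigned differed between the arrays in the same way. Every Pcdha member shared exon bases with the 13 other Pcdha members and every Pcdhg member with the 21 other Pcdhg members, including its 3′ end, and only 7.004 to 51.4% of the exon bases of a Pcdha member and 0 to 68.5% of those of a Pcdhg member belonged to no other gene. Of the Pcdhb members, 1 had its 3′ end in an exon of another member (Pcdhb21, which runs into Pcdhb22), and the share of unshared exon bases was 36.5 to 100%. The counter used, featureCounts, leaves a read that overlaps exons of several genes unassigned by default, and no setting to count such reads is named. A low count in Pcdha or Pcdhg therefore cannot be read as a low level, and levels are not compared between the arrays. A genotype difference within Pcdha or Pcdhg has the same limit, since by that default only reads that miss the shared exons are counted. Whether the share of such reads differed between genotypes was not tested.

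**Figure D1:**
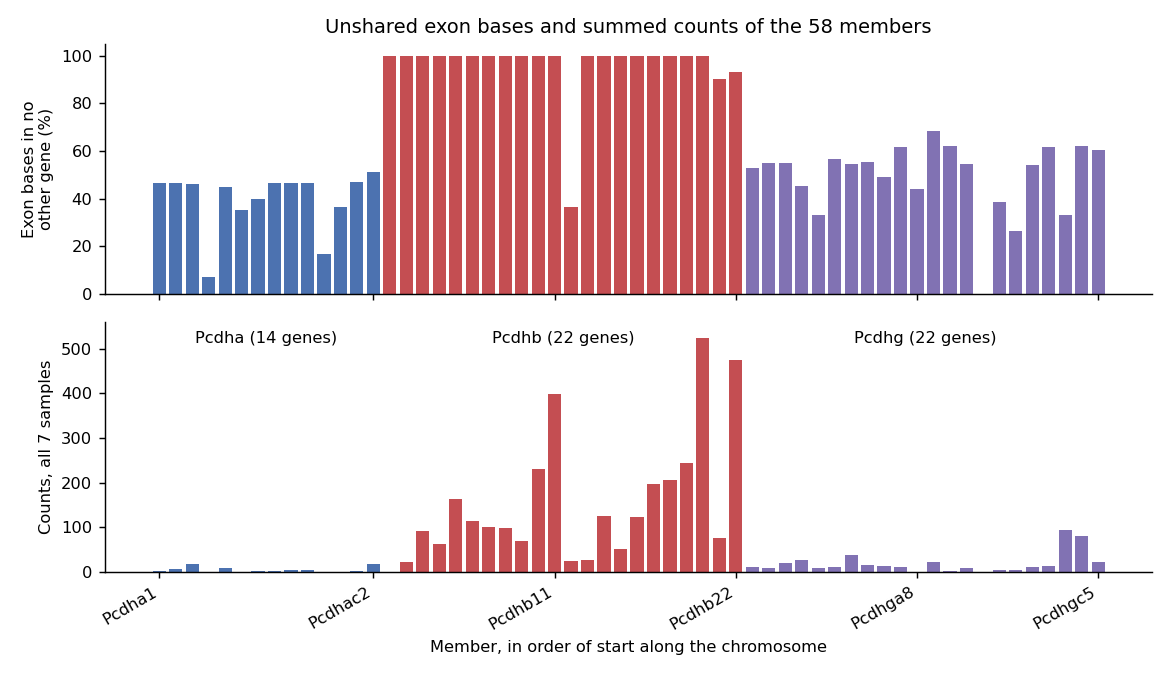
Upper panel, the percentage of each member's exon bases that lie in no other gene of the annotation. Lower panel, the counts of each member summed over the 7 samples. Members are in order of start along the chromosome on the horizontal axis, with Pcdha in blue, Pcdhb in red and Pcdhg in purple. The members with the most unshared bases, in the Pcdhb array, also hold most of the counts, up to 524 for Pcdhb20.

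Within the Pcdhb array, the members that were higher in *Smchd1*-null NSCs lay mostly in its 5′ part. Of the 21 Pcdhb members with at least 10 counts, 9 were higher in every *Smchd1*-null sample than in every WT sample and none was lower without overlap, against 2.89% higher and 2.88% lower among the 19824 genes with at least 10 counts. The 9 were Pcdhb3, Pcdhb4, Pcdhb5, Pcdhb6, Pcdhb8, Pcdhb10 and Pcdhb11 among positions 1 to 11 and Pcdhb20 and Pcdhb22 among positions 12 to 22. In the test across all genes, 5 Pcdhb members rose at an adjusted p under 0.25 (Pcdhb6, Pcdhb8, Pcdhb10, Pcdhb11 and Pcdhb22), against 0.474% of the 13305 genes tested, and 0 fell, against 0.609%. At an adjusted p under 0.05 Pcdhb11 alone rose, against 0.0451% of genes. Before adjustment, 8 Pcdhb members had a limma p under 0.05 and a positive fold change, against 7.11% of genes higher and 6.74% lower, but 5 of the 8 (Pcdhb3, Pcdhb4, Pcdhb5, Pcdhb6 and Pcdhb8) passed the filter on low counts only through the *Smchd1*-null samples, so that their direction is in part fixed by the filter.

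**Figure D2:**
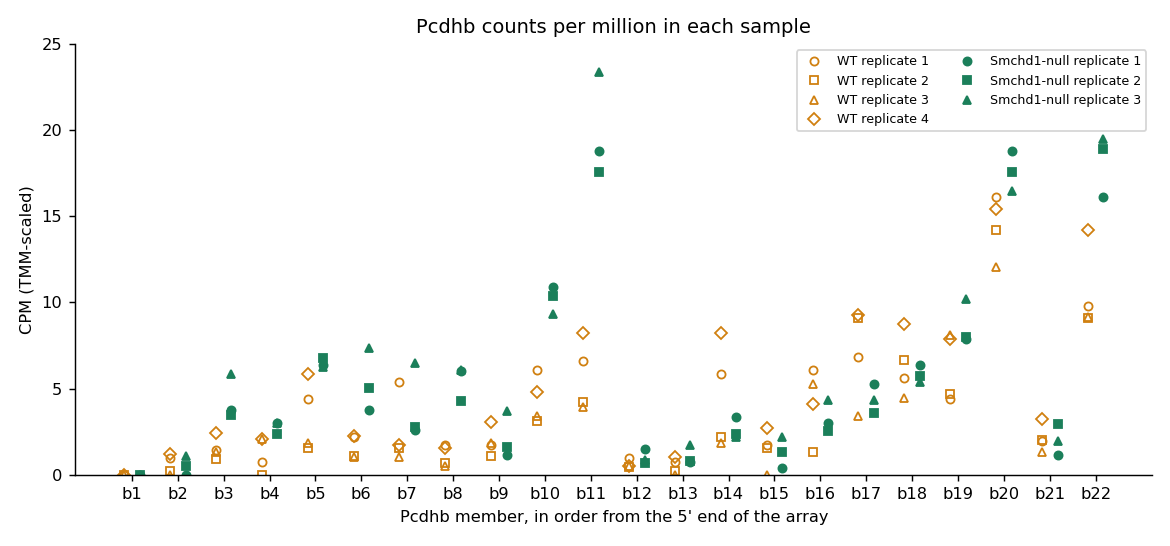
CPM of the 22 Pcdhb members in each sample, in order from the 5′ end of the array. Open orange symbols are the 4 WT and filled green symbols the 3 *Smchd1*-null samples. The *Smchd1*-null samples lie above all WT samples in 7 members up to Pcdhb11 and in Pcdhb20 and Pcdhb22, and the groups overlap or both lie at 0 in the other 13.

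Pcdhb11, at position 11, had the widest gap between the genotypes in CPM. Its level was 6.59, 4.22, 3.93 and 8.23 CPM in WT replicates 1 to 4 and 18.8, 17.6 and 23.4 CPM in *Smchd1*-null replicates 1 to 3. The lowest *Smchd1*-null sample was thus far above the highest WT sample, WT replicate 4. The log2 fold change was 1.81 (SE 0.27, limma adjusted p = 0.0332). The difference in log-CPM was alike within the batches, at 2.00 in batch 1 and 1.95 in batch 2.

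Next to it, Pcdhb10 had 6.10, 3.11, 3.41 and 4.80 CPM in WT and 10.9, 10.4 and 9.31 CPM in *Smchd1*-null samples. The 3 *Smchd1*-null samples were close together and did not overlap the WT samples. Its log2 fold change was 1.27 (SE 0.28, limma adjusted p = 0.176), with differences of 1.65 and 1.12 in log-CPM within batches 1 and 2.

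Pcdhb8 was low in WT, at 1.71, 0.666, 0.524 and 1.54 CPM, of which WT replicates 2 and 3 lay at or under the level of 3 counts. The *Smchd1*-null samples had 6.01, 4.26 and 6.06 CPM, all above the WT samples. The log2 fold change of 2.25 (SE 0.47, limma adjusted p = 0.143) was the highest of the Pcdhb members tested, and within batches 1 and 2 the log-CPM differed by 2.33 and 2.25.

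Pcdhb6 had 2.20, 1.11, 1.05 and 2.23 CPM in WT and 3.75, 5.06 and 7.36 CPM in *Smchd1*-null samples. The groups did not overlap, and *Smchd1*-null replicate 3 was the highest. Its log2 fold change was 1.63 (SE 0.42, limma adjusted p = 0.233), and the within-batch differences in log-CPM were 1.64 and 1.98.

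Pcdhb22, the last Pcdhb gene, was the only member of positions 12 to 22 that passed the test. Its level was 9.77, 9.11, 9.18 and 14.2 CPM in WT, where replicate 4 stood above the other WT samples, and 16.1, 18.9 and 19.5 CPM in *Smchd1*-null samples. The groups did not overlap. The log2 fold change was 0.85 (SE 0.21, limma adjusted p = 0.218), and the within-batch differences in log-CPM were 0.91 and 0.75.

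Further 5′ members, Pcdhb3, Pcdhb4 and Pcdhb5, had no overlap between genotypes but did not pass the test. Pcdhb3 had 1.47, 0.888, 1.31 and 2.40 CPM in WT and 3.75, 3.46 and 5.84 CPM in *Smchd1*-null samples (log2 fold change 1.38, SE 0.41, limma adjusted p = 0.275). Pcdhb5 had 4.40, 1.55, 1.84 and 5.83 CPM in WT and 6.38, 6.79 and 6.28 CPM in *Smchd1*-null samples, with WT replicates 1 and 4 near the *Smchd1*-null level (log2 fold change 1.20, SE 0.37, limma adjusted p = 0.284). Pcdhb4 had 0.733, 0, 2.10 and 2.06 CPM in WT and 3.00, 2.40 and 3.03 CPM in *Smchd1*-null samples (log2 fold change 1.54, SE 0.66, limma adjusted p = 0.335), and its counts were near the floor in WT.

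Pcdhb20 had the most counts of all members, with 16.1, 14.2, 12.1 and 15.4 CPM in WT and 18.8, 17.6 and 16.5 CPM in *Smchd1*-null samples. Its groups were separated by less than the spread within either of them. The log2 fold change was 0.32 (95% interval −0.08 to 0.72, limma adjusted p = 0.431).

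Not every member of the 5′ part was separated by genotype. Pcdhb7, between Pcdhb6 and Pcdhb8, had 5.37 CPM in WT replicate 1 and 1.05 to 1.71 CPM in the other WT samples, against 2.63, 2.79 and 6.49 CPM in *Smchd1*-null samples. WT replicate 1 thus lay above 2 of the 3 *Smchd1*-null samples. Its log2 fold change was 0.59 (95% interval −0.48 to 1.66, limma adjusted p = 0.588). Pcdhb9, named after its values were seen, was not tested, and its 1.11 to 3.09 CPM in WT enclosed 2 of its 3 *Smchd1*-null values, which were 1.13, 1.60 and 3.68 CPM. Pcdhb1, the first Pcdhb gene, had 0 counts in all 7 samples, and Pcdhb2 had 21 counts in all.

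Between Pcdhb12 and Pcdhb21 the genotypes overlapped in all members but Pcdhb20. Pcdhb17 had the most negative log2 fold change of the Pcdhb members tested, −0.54 (95% interval −1.30 to 0.22, limma adjusted p = 0.480), from 6.84, 9.11, 3.41 and 9.26 CPM in WT and 5.26, 3.59 and 4.33 CPM in *Smchd1*-null samples. In Pcdhb18, WT samples had 4.46 to 8.75 CPM and *Smchd1*-null samples 5.41 to 6.38 CPM, and the log2 fold change was 0.02 (95% interval −0.58 to 0.61). The log2 fold changes of Pcdhb14, Pcdhb16 and Pcdhb19 were −0.40, −0.48 and 0.44, with limma adjusted p-values of 0.685, 0.603 and 0.468. Pcdhb12, Pcdhb13, Pcdhb15 and Pcdhb21 had 24, 26, 51 and 75 counts in all and were not tested. Counts of Pcdhb12 are uncertain, since the antisense gene Gm37446 lies over part of its exons and the counting is not stated to use strand, and Gm37446 had 8 counts.

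**Figure D3:**
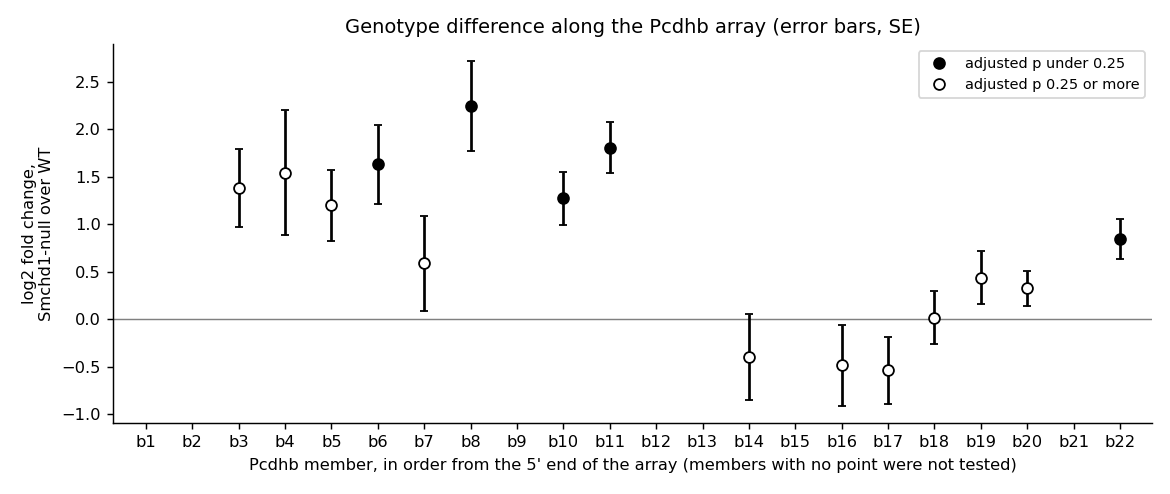
Log2 fold change of *Smchd1*-null over WT (limma, bars are SE) for the 15 Pcdhb members tested, in order from the 5′ end of the array. Filled points have an adjusted p under 0.25. The 8 points up to Pcdhb11 all lie above 0, between 0.59 and 2.25, and the 7 points from Pcdhb14 on lie between −0.54 and 0.85. Pcdhb3 to Pcdhb8 passed the filter on low counts only through the *Smchd1*-null samples, and Pcdhb14 only through the WT samples. The direction of these points is therefore in part fixed by the filter.

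The filter on low counts bears on these fold changes. Of the 15 Pcdhb members that passed it, 6 (Pcdhb3 to Pcdhb8) had enough counts in the *Smchd1*-null samples alone, 8 would have passed through either genotype, and Pcdhb14 passed through the WT samples alone. A member that passed only where it was high had to differ, so the count of positive fold changes among tested members is not support for a direction. Of the 5 members that rose, Pcdhb10, Pcdhb11 and Pcdhb22 would have passed through either genotype.

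The calls at the 0.25 threshold depended on single libraries. Without *Smchd1*-null replicate 1 no member was called by limma, where 0% of all genes rose (7 members had an unadjusted p under 0.05). Without WT replicate 1, WT replicate 3 or *Smchd1*-null replicate 2 the call was Pcdhb11 alone, and without WT replicate 4 it was Pcdhb8 and Pcdhb11. In these fits, in that order, 0.0458%, 0.122%, 0.00744% and 0.163% of all genes rose. Without WT replicate 2, or without *Smchd1*-null replicate 3, 7 Pcdhb members rose, and without WT replicate 2 Pcdhb16 fell. In these 2 fits 11.6% and 11.9% of all genes rose and 11.1% and 11.6% fell. The log2 fold change of Pcdhb11 stayed between 1.62 and 2.09 over all alternatives that were run. That of Pcdhb8 lay between 1.90 and 2.73, of Pcdhb6 between 1.41 and 2.10, of Pcdhb10 between 1.14 and 1.52 and of Pcdhb22 between 0.78 and 1.03. With batch as a covariate 6 Pcdhb members rose, the same 5 and Pcdhb3, where 0.346% of all genes rose.

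Summing over members avoids the filter, since every Pcdhb gene then counts. The 22 Pcdhb members together had 91.3, 66.0, 63.2 and 108.5 CPM in WT and 121, 119 and 142 CPM in *Smchd1*-null samples. No WT sample reached the lowest *Smchd1*-null sample, with means of 127 ± 12.4 (SD, n = 3) and 82.3 ± 21.6 CPM (SD, n = 4), a ratio of 1.55.

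By segment, the genotypes were apart in the 5′ part of the array and overlapped in the 3′ part. Positions 1 to 11 summed to 31.3, 14.4, 17.04 and 33.1 CPM in WT and to 56.3, 54.8 and 72.5 CPM in *Smchd1*-null samples, a ratio of means of 2.56. The ratio was 3.85 within batch 1, against WT replicate 2 alone, the lowest WT sample, and 2.89 within batch 2. The groups did not overlap. Without Pcdhb11, the sum over Pcdhb1 to Pcdhb10 was 24.7, 10.2, 13.1 and 24.9 CPM in WT and 37.5, 37.3 and 49.1 CPM in *Smchd1*-null samples, still without overlap and with a ratio of 2.27. Positions 12 to 22 summed to 60.1, 51.5, 46.1 and 75.5 CPM in WT and to 64.6, 64.4 and 69.1 CPM in *Smchd1*-null samples. Here WT replicate 4 was the highest of all samples, and the ratio of means was 1.13, with 1.25 and 1.14 within batches 1 and 2.

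As a share of all Pcdhb counts, which does not depend on library scaling, positions 1 to 11 held 34.2, 21.9, 27.0 and 30.5% in WT replicates 1 to 4. In *Smchd1*-null replicates 1 to 3 they held 46.6, 45.98 and 51.2%. The highest WT share, of replicate 1, was below the lowest *Smchd1*-null share, of replicate 2. Counting alone gave a 95% Wilson interval of 29.6 to 39.2% for WT replicate 1 and of 42.7 to 49.3% for *Smchd1*-null replicate 2, which does not cover the spread between samples of a genotype. The means were 28.4 ± 5.25% (SD, n = 4) and 47.9 ± 2.87% (SD, n = 3). The split at position 11 was chosen after the values were seen, so the difference between the segments was not tested.

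**Figure D4:**
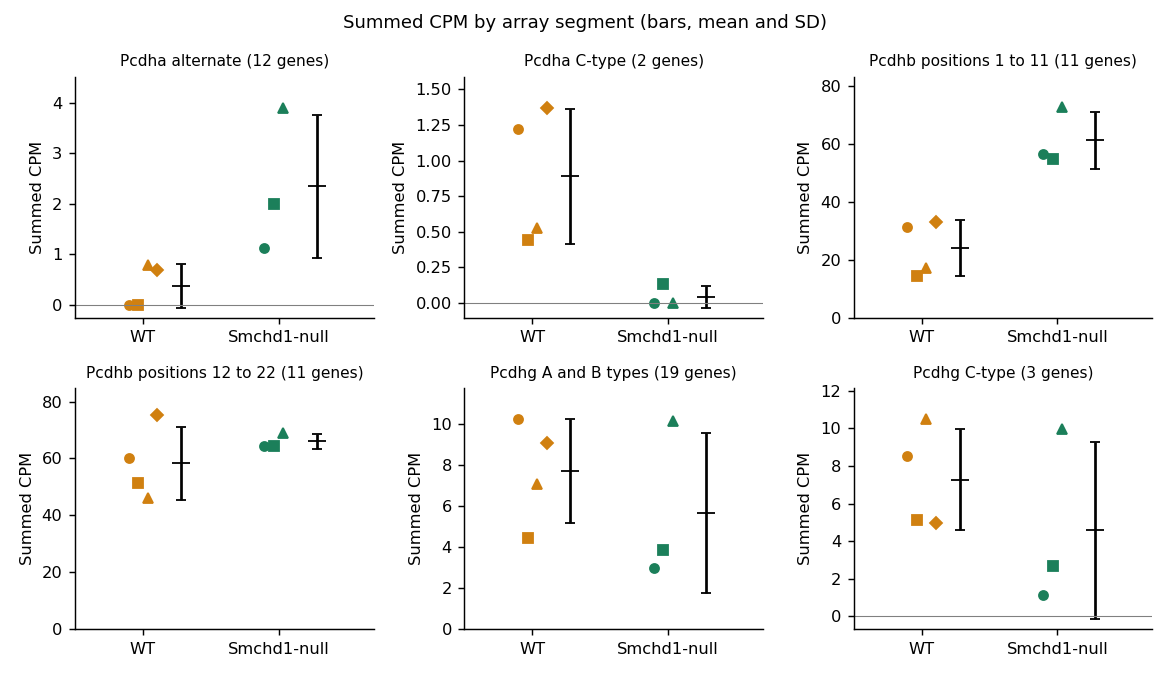
Summed CPM of 6 segments of the arrays in each WT (orange) and *Smchd1*-null (green) sample, with the mean and SD beside the points. Circles, squares, triangles and diamonds are replicates 1, 2, 3 and 4. The genotypes do not overlap in Pcdhb positions 1 to 11 (higher in *Smchd1*-null). In the Pcdha alternate members they do not overlap in CPM, but *Smchd1*-null replicate 1 has 3 counts and WT replicates 3 and 4 have 3 and 4. The Pcdha C-type members have 1 count in the *Smchd1*-null samples, and the genotypes overlap in the other 3 segments.

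The study's authors expected long reads, which are not fragmented, to have no length bias in theory, and found length only weakly tied to expression. CPM per kb is therefore a second scaling here, which lowers long members. Per kb of exon length, Pcdhb20 was the highest Pcdhb gene in both genotypes. In CPM without the division by length this held in WT only, since in *Smchd1*-null samples Pcdhb11 had 19.9 ± 3.07, Pcdhb22 18.2 ± 1.78 and Pcdhb20 17.6 ± 1.16 CPM (SD, n = 3). Per kb, it was at 4.06 ± 0.50 CPM per kb in WT (SD, n = 4), followed by Pcdhb22 at 1.599 ± 0.372, Pcdhb17 at 1.54 ± 0.586, Pcdhb10 at 1.53 ± 0.484 and Pcdhb11 at 1.30 ± 0.462, and the last 4 were within 1 SD of each other. In *Smchd1*-null samples Pcdhb20 was at 4.94 ± 0.325 CPM per kb (SD, n = 3), and Pcdhb11 was next at 4.504 ± 0.694, within 1 SD of it. Pcdhb10 followed at 3.57 ± 0.283 and Pcdhb22 at 2.75 ± 0.270, whereas Pcdhb17 was at 0.943 ± 0.179 CPM per kb. Pcdhb8 was at 0.319 ± 0.173 CPM per kb in WT and 1.56 ± 0.294 in *Smchd1*-null samples.

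Over all 22 Pcdhb members, Spearman's rho between position and the mean CPM per kb was 0.58 in WT and 0.21 in *Smchd1*-null samples. Both values include the division by length, and length itself rose with position among the members tested. The members share libraries and an order that was not chosen at random, so these are descriptions. Over the 15 members tested, rho between position and log2 fold change was −0.59 (−0.71 to −0.29 over the fits that were run, the last of these with 7 members). The filter builds in part of this value, since Pcdhb3 to Pcdhb8, all near the 5′ end, passed only through the *Smchd1*-null samples and Pcdhb14 only through the WT samples. Gene length moved along with both, with rho of 0.54 between position and length and −0.54 between length and log2 fold change. Over all 13305 genes tested, length and log2 fold change also had a rho of −0.38. With the length trend across all genes removed, the same 5 Pcdhb members rose, where 0.451% of all genes rose, and the log2 fold change of Pcdhb11 was 1.82.

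Likeness in sequence also varied along the array. Each of the 9 members at positions 4 to 12 had another Pcdhb member with 84.2 to 89.1% identity over the open reading frame. For the other 13 members the nearest one had 60.0 to 76.5% identity. The most alike were Pcdhb6 and Pcdhb8 (89.1%), which both rose, and Pcdhb7 and Pcdhb9 (88.9%), which did not pass the test and were not tested, respectively. Pcdhb11 was nearest to Pcdhb12 (87.8%), with 399 counts against 24. A read of such a member is counted where its primary alignment falls, and how many reads were placed on a near copy was not tested.

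The Pcdha array had few counts, and none of its members passed the filter. By the default of the counter, only reads that miss the shared exons are counted here. The 12 alternate members together had 0, 0, 3 and 4 counts in WT and 3, 15 and 18 counts in *Smchd1*-null samples, or 0 to 0.787 CPM and 1.13 to 3.90 CPM. The groups did not overlap in CPM, but most values lie near the level of 3 counts. Counting does not tell the 3 counts of *Smchd1*-null replicate 1 from the 3 and 4 counts of WT replicates 3 and 4. At this depth the genotypes are therefore not separated sample by sample, as for Pcdhac2 below. Pooled over samples, 36 counts against 7 gave a rate ratio of 6.34 (95% exact conditional interval 2.78 to 16.9). This interval covers counting error only and leaves out the spread between samples of a genotype, so it is no test of genotype. Pcdha3 gave the most of these, with 2 counts in WT replicate 4 and 0 in the other WT samples, against 0, 7 and 8 counts in *Smchd1*-null samples. Pcdha5 had 8 counts in all and Pcdha1, the first gene of the cluster, 2.

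The C-type genes of Pcdha, which are named apart from the alternate members and lie next to the constant exons, had still fewer counts, most of them in WT. Pcdhac2 had 4, 2, 2 and 8 counts in WT replicates 1 to 4 and 0, 1 and 0 counts in *Smchd1*-null replicates 1 to 3. At this depth the genotypes are not separated sample by sample, since a count of 0 in *Smchd1*-null replicate 1 allows up to 1.13 CPM, above the 0.977, 0.444 and 0.524 CPM of WT replicates 1 to 3. The pooled rate ratio was 0.0771 (95% exact conditional interval 0.00184 to 0.496), for 1 count against 16, and this interval too leaves out the spread between samples. Pcdhac1 had 1 count, in WT replicate 1. Where all genes with at least 1 count were fitted, Pcdhac2 had a log2 fold change of −2.32 (limma adjusted p = 0.444) and Pcdha3 one of 2.15 (limma adjusted p = 0.767), so neither was called.

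The Pcdhg array showed no separation of the genotypes, in counts that by default leave out reads over the shared exons. Summed over its 22 members, the level was 18.8, 9.55, 17.6 and 14.1 CPM in WT and 4.13, 6.52 and 20.1 CPM in *Smchd1*-null samples. *Smchd1*-null replicates 1 and 2, of batch 1, were below every WT sample, and replicate 3, of batch 2, was above every WT sample. The ratio of means was 0.684 over all samples, 0.558 within batch 1 and 1.27 within batch 2. The 19 A-type and B-type members summed to 4.44 to 10.3 CPM in WT and to 3.00, 3.86 and 10.2 CPM in *Smchd1*-null samples, none of them was tested, and the highest count among them was 38 in all, for Pcdhga5. Pcdhga1, the first Pcdhg gene, had 11 counts in all, and Pcdhga10, whose exon bases all lie in other genes, had 0.

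Of the C-type genes of Pcdhg, Pcdhgc3 had 4.64, 2.67, 4.98 and 2.92 CPM in WT and 0.375, 1.20 and 3.46 CPM in *Smchd1*-null samples. *Smchd1*-null replicates 1 and 2 were below every WT sample, and replicate 3 lay within the WT range. Pcdhgc3 fell at an adjusted p under 0.25 (log2 fold change −1.90, SE 0.50, limma adjusted p = 0.233), but the difference in log-CPM was −1.44 within batch 1 and −0.13 within batch 2, and with batch as a covariate the adjusted p was 0.597. It was also not called without WT replicate 1, 3 or 4 or *Smchd1*-null replicate 1 or 2. The fit weighted *Smchd1*-null replicates 1 to 3 by 2.03, 1.83 and 0.674, and the WT samples by 0.447 to 1.29. Without these sample weights the log2 fold change of Pcdhgc3 was −1.34. The antisense gene BC037039 overlaps Pcdhgc3, and it had 150 counts and a log2 fold change of −0.08 (limma adjusted p = 0.942).

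Pcdhgc4 had 3.17, 1.78, 3.67 and 1.54 CPM in WT and 0.375, 1.33 and 5.63 CPM in *Smchd1*-null samples, with the highest and the lowest value both among the *Smchd1*-null samples. Its log2 fold change was −1.15 (SE 0.57, limma adjusted p = 0.381), with −0.89 in log-CPM within batch 1 and 1.09 within batch 2. The unweighted means were close, at 2.54 CPM in WT and 2.44 CPM in *Smchd1*-null samples. Without sample weights the log2 fold change of Pcdhgc4 was −0.41. The last member, Pcdhgc5, had 22 counts and was not tested.

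Genes around the arrays were read from the same fit. Within 1 Mb on either side or between the members, 92 other genes were listed, of which 38 were tested, and 0 rose and 1 fell at an adjusted p under 0.25, where 0.474% of all genes rose and 0.609% fell. The median log2 fold change was 0.02 for the 20 genes tested upstream and −0.11 for the 13 downstream, against 0.00 over all genes tested. The gene that fell was Gm10544, a noncoding minus-strand transcript that spans 37159854 to 37178522, within the span of the Pcdha genes. It had 3.91, 2.44, 3.41 and 4.97 CPM in WT and 1.13, 0.932 and 1.73 CPM in *Smchd1*-null samples, without overlap. Its log2 fold change was −1.62 (SE 0.40, limma adjusted p = 0.218), and it was not called with edgeR, DESeq2 or batch as a covariate. Without WT replicate 2, 2 of 37 neighbours tested rose and 6 fell, where 11.6% of all genes rose and 11.1% fell. Without *Smchd1*-null replicate 3, 2 of 38 rose and 7 fell, where 11.9% of all genes rose and 11.6% fell.

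**Figure D5:**
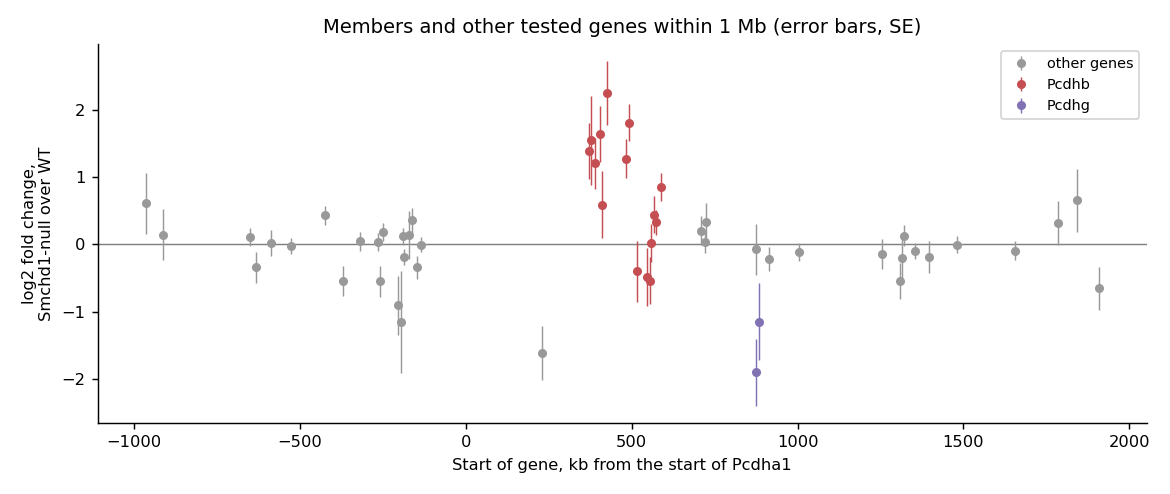
Log2 fold change of *Smchd1*-null over WT (limma, bars are SE) against the start of each gene in kb from the start of Pcdha1, for the tested members and the 38 tested neighbours within 1 Mb. Grey points are neighbours, red points Pcdhb and purple points Pcdhg members. The points above 1 are all Pcdhb members, and the lowest grey point is Gm10544. Of the points above 1, Pcdhb3 to Pcdhb6 and Pcdhb8 passed the filter on low counts only through the *Smchd1*-null samples.

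Genes known to regulate or to work with the arrays were read from lists. Of 14 regulators, among them the insulator protein CTCF, cohesin subunits and DNA methyltransferases, all 14 were tested and 0 were called at an adjusted p under 0.25. Their median log2 fold change was −0.05. The smallest adjusted p was that of the cohesin subunit Stag2, with 111 to 149 CPM in WT and 107 to 129 CPM in *Smchd1*-null samples (log2 fold change −0.28, limma adjusted p = 0.347). Of 19 cytoplasmic partners and processing enzymes, 17 were tested and Cyfip2 fell at an adjusted p under 0.25, where 0.609% of all genes fell. Cyfip2, a subunit of the WAVE complex that controls actin branching, had 49.8, 44.2, 36.7 and 77.0 CPM in WT and 16.5, 23.4 and 29.9 CPM in *Smchd1*-null samples. Its groups did not overlap (log2 fold change −1.09, SE 0.22, limma adjusted p = 0.126). Of 12 protocadherins outside the arrays, 9 were tested and 0 were called, and the smallest adjusted p was that of Pcdh9, with 11.99 to 33.4 CPM in WT and 12.9 to 17.5 CPM in *Smchd1*-null samples (log2 fold change −0.55, limma adjusted p = 0.359).

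Clustered protocadherins are expressed in neurons and glia too, so markers of other cell types were measured beside them. In bulk RNA, fewer cells of a type and less RNA per cell cannot be told apart. The 10 NSC markers summed to 8953 to 13878 CPM in WT and 8527 to 10093 CPM in *Smchd1*-null samples, with 0 called. The 8 neuron markers summed to 395 to 478 CPM in WT and 395 to 417 CPM in *Smchd1*-null samples, with 0 of 7 tested called, and Dcx, a marker of young neurons, was at 36.2 CPM in WT replicate 4 and at 3.00 to 11.97 CPM in the other samples. The 5 astrocyte markers summed to 335 to 946 CPM in WT and 247 to 404 CPM in *Smchd1*-null samples. Of the 4 tested, 1, Aldoc, fell (log2 fold change −0.81, limma adjusted p = 0.233), where 0.609% of all genes fell. How far this call and that of Cyfip2 depend on single libraries is not given. The 7 oligodendrocyte-lineage markers summed to 1027 to 1441 CPM and 1008 to 1035 CPM, with 0 called. The sums of the microglia and endothelial markers were at most 3.93 CPM in any sample, and the microglia marker Tmem119 was at 0 in all. Whether the astrocyte markers, whose sums overlapped between the genotypes, bear on the protocadherin differences was not tested.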

How the data were processed

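Per the file headers, each of the 7 files holds 1 raw count per gene and the gene length. To make the counts, the authors base-called the reads with Guppy, aligned them to mm10 with minimap2 2.17 and assigned primary alignments to genes of a Gencode annotation of GRCm38 with featureCounts, set for long reads, summing both batches of a sample. The strand setting is not given in the sources used here. The deposited length has the unit of bases and was used for CPM per kb.

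Symbols and exons came from Gencode M21, which matched 55154 of the 55335 identifiers with the version ignored. Genes were filtered with filterByExpr, scaled by TMM and tested as in the study's methods with limma voomWithQualityWeights, genotype as the only term, all 7 samples and Benjamini-Hochberg adjustment over 13305 genes at thresholds of 0.05 and 0.25. Log-CPM used a prior count of 2. Software was R 4.3.3, limma 3.58.1, edgeR 4.0.16 and DESeq2 1.42.0, and the fits were tested on simulated data. No 2 samples of a group agreed within counting noise. Members, gene lists and alternatives were chosen with earlier results of these data known. Named genes were Smchd1, members with an adjusted p under 0.25, the 3 highest by mean CPM of each array, first, last and C-type members, and for each list or neighbourhood the genes under 0.25 or else the smallest p. The NSC and oligodendrocyte-lineage markers are exceptions, for which no gene is named. Other members are named to account for the whole array and were chosen after their values were seen. Alternatives were DESeq2, the quasi-likelihood test of edgeR, unweighted voom, other scalings and filters, batch as a covariate, a replicate block, a length correction and leaving out each sample.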

Additional observations from a re-analysis of the deposited data

Results flagged for a closer look

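The log-CPM of Pcdhb22 in WT replicate 4 was 3.87, above the other WT samples at 3.25 to 3.35, and its gap to the nearest of them was 0.844 of the range of the group, over the 95% critical value of Dixon's test. It was the only 1 of 13 WT groups to pass that limit, and 0.65 would do so by chance. The *Smchd1*-null groups of 3 samples were not examined in this way.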

How the results depend on the processing

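With 41 of the 58 members (14 Pcdha, 7 Pcdhb and 20 Pcdhg) not past the filter, most members had too few counts for a test. In place of the 17 members tested, 51 were tested with at least 1 count and 7 with at least 10 counts in every sample, and 15 to 20 when 1 sample was left out. The 5 members called higher at 0.25 became 1 with edgeR (0.0451% of all genes rose), 2 with DESeq2 (0.135%) and 1 without sample weights (0.0601%). They became 2 with all genes of at least 1 count (0.0488%) and 3 with at least 10 counts in every sample (1.59%). When 1 sample was left out they became 0 to 7, where 0 to 11.9% of all genes rose. The 1 called higher at 0.05 became 0 with edgeR, without sample weights and with at least 1 count, 2 with batch as a covariate, and 0 to 1 when 1 sample was left out. The 1 called lower, Pcdhgc3, became 0 with edgeR, DESeq2, no sample weights, either other filter, batch as a covariate with or without WT replicate 1, and either block fit, and 0 to 3 when 1 sample was left out. The 1 neighbour called became 0 with edgeR, DESeq2, no sample weights, at least 1 count, batch as a covariate with or without WT replicate 1 and either block fit, and 0 to 9 when 1 sample was left out. With at least 10 counts in every sample, 1 of 29 neighbours tested rose and 0 fell, where 1.59% of all genes rose. That was another gene, since Gm10544, with 3 counts in *Smchd1*-null replicate 1, was not tested there. Pcdhgc4 changed sign with edgeR (0.032) and with batch as a covariate (0.10). The cause of these changes was not tested, apart from the fewer or more genes that the filters leave.

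Ratios of *Smchd1*-null over WT sums moved within batch 1 to 3.66 for Pcdha (1.89 over all samples) and to 3.85 for Pcdhb positions 1 to 11 (2.56). When 1 sample was left out they ranged from 1.29 to 2.40 for Pcdha, 1.44 to 1.73 for Pcdhb, 0.355 to 0.889 for Pcdhg, 2.26 to 2.93 for Pcdhb positions 1 to 11 and 1.06 to 1.26 for positions 12 to 22. The sums over Pcdhb positions were chosen after seeing the data. Over all genes, 144 called at 0.25 became 8 with edgeR and 32 with DESeq2.

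The replicate numbers did not pair the samples, with correlations of −0.04, 0.36 and 0.09 between same-numbered samples. With a replicate block 7 members were called higher at 0.25, where 0.646% of all genes rose. With the block and the length trend removed together 8 were, where 0.729% of all genes rose, and 3 at 0.05.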
